A study of Mus musculus with 16 samples.

Results

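The genes described here build and run the machinery of mitosis: the cyclins and kinase that start it, the spindle motors and kinetochores that move chromosomes, and the factors that divide the cell. Of 42 such genes listed, 41 had a probe set annotated to their symbol alone, out of 19938 genes measured this way, and the brightest probe set stood for each gene. Ccnb1, which encodes cyclin B1, had none and was not analysed here. The genes were listed by name, with earlier results of these data known. Top2a was the 1 gene with several probe sets.

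The cells were regulatory T cells (Treg), CD4 T cells that restrain immune responses and carry the transcription factor Foxp3. They came from pooled lymph nodes of wild type female C57BL/6 mice aged 8 to 12 weeks and were sorted by 2 surface proteins, the integrin CD103 and the costimulatory receptor ICOS, into cells with neither (double-negative), with CD103 alone (CD103 single-positive), with ICOS alone (ICOS single-positive) and with both (double-positive). RNA was taken from each subset directly after the sort (fresh) or after 3 days in a suppression assay (activated), on 2 arrays per group and 16 arrays in all. In the assay, 200000 Treg shared a culture with 1000000 naive CD4 cells of the Ly5.1 congenic strain, 2000000 irradiated Rag2-/- splenocytes and soluble anti-CD3 at 0.5 ug/ml, and the Treg were sorted again as Ly5.1-negative, CD4-positive, CD25-positive cells. The activated groups are thus cells that were recovered from the culture and passed a second gate. That gate did not use CD103 or ICOS, and the activated groups keep the names of the subsets sorted before culture. For activated cells, with or without ICOS or CD103 therefore means the starting subset. The pooled nodes do not tell which node a cell came from.

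As background, transcripts of mitotic genes are scarce in resting lymphocytes and accumulate from late S phase to mitosis, after which most of their proteins are destroyed by the anaphase promoting complex. Their promoters are held silent in resting cells by the DREAM complex and activated later in the cycle by B-Myb, FoxM1 and NF-Y, which reads CCAAT boxes. A sequence element called the CHR, usually TTTGAA, is the site through which DREAM binds many of these promoters. In lymph nodes, Treg with an activated surface phenotype are known to include more dividing cells than resting Treg.

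The promoters of the genes were examined for these elements, since the genes moved together in the arrays. RefSeq windows on GRCm38.p6 of 250 bases before to 50 after the transcription start were given for 37 of the 41 genes and not for Aurkb, Ccna2, Kif20a and Tpx2. The motif CCAAT, on either strand, was in 27 of the 37 windows (73.0%), against 38.2% of the 15614 measured genes with a window. The motif TTTGAA, on either strand, was in 30 of 37 (81.1%), against 15.2% of measured genes, and both motifs were in 25 (67.6%), against 6.12%. In the windows of 55 other mitosis genes the shares were 65.5% for CCAAT, 52.7% for TTTGAA and 40.0% for both. Matches of the 2 motifs can share no more than an edge base, and a match is only a run of letters. No TTTGAA was in the windows of Birc5, Bub1, Cenpe, Melk, Ncaph, Nuf2 and Nusap1. The 250 bases before the start are shown for 4 genes with a large fresh ICOS difference, 5′ to 3′ on the gene's strand, to show windows with several elements, with 1 of each kind and with CCAAT alone. Capitals mark CCAAT or its reverse complement ATTGG, and TTTGAA or its reverse complement TTCAAA.

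Mki67, chr7:135716380-135716629, reverse strand: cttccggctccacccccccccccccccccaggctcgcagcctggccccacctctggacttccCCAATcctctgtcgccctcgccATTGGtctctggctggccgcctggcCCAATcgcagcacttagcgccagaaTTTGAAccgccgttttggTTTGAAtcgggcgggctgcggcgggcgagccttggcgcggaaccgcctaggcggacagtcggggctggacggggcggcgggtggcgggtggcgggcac

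Kif11, chr19:37376132-37376381, forward strand: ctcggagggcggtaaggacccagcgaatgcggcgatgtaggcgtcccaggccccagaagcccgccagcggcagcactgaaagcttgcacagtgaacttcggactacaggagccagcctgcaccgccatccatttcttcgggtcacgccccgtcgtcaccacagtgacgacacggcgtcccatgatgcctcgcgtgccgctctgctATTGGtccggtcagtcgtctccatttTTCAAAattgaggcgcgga

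Ccnb2, chr9:70421555-70421804, reverse strand: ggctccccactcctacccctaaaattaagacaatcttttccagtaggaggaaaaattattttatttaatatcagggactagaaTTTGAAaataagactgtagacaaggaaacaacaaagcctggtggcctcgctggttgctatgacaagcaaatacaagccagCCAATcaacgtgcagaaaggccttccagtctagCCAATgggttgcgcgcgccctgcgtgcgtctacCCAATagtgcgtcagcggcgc

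Bub1, chr2:127831860-127832109, reverse strand: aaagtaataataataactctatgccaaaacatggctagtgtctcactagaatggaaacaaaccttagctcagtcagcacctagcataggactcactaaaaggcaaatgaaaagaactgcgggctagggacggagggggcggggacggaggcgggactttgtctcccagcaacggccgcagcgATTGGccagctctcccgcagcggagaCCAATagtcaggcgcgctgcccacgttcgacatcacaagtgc

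Counted from the start site to a match's first base, Mki67 held CCAAT at -188, -166 and -141 and TTTGAA at -116 and -98. Kif11 held 1 CCAAT at -45 and 1 TTTGAA at -19, both on the reverse strand. Ccnb2 held CCAAT at -87, -54 and -21 and TTTGAA at -167 and, past the bases shown, at 5. Bub1 held CCAAT at -68 and -42 and no TTTGAA. All 4 genes are described with their levels further on.

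All levels are log2 intensities as deposited. Array medians lay between 6.26 and 6.48, and a level near or under them includes background, so folds against such levels can understate the difference. Foxp3 was 11.69 to 12.84 on 15 arrays and 8.53 on activated ICOS single-positive replicate 2, where the mean of 12 Treg identity genes was 9.83 against 11.62 on its partner. That array stood apart from its label in this respect, and most results that rest on activated ICOS single-positive cells are therefore also given without it. The mean of 6 measured T cell genes was 11.09 to 12.14 on all arrays. B cell genes averaged 5.26 to 6.44 and myeloid genes 5.95 to 6.73. Both means were highest on fresh CD103 single-positive replicate 1, at 6.44 and 6.73, against 5.69 and 6.05 on its partner. The mean of 8 CD8 T and NK cell genes was 6.60 on the array with low Foxp3, the highest of the 16, against 5.601 on its partner and 5.49 to 6.29 on the others. Klrd1, an NK cell receptor gene, read 10.47 there against 5.32 on its partner. The median of the 8 genes, each centred on its mean of the 16 arrays, was close on the 2 arrays, at -0.159 there and -0.208 on its partner. The part of CD8 T and NK cells in the results was not tested. Differences were tested with limma over all 19938 genes, and the threshold was a p of 0.05 after Benjamini-Hochberg adjustment. In bulk RNA, fewer dividing cells and less mitotic RNA per cell cannot be told apart.

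Which fresh subset carried mitotic transcripts was asked first. Before culture, 39 of the 41 genes were higher in ICOS-positive than in ICOS-negative Treg and none was lower. Their differences ranged from 0.46 to 3.78 with a median of 1.98, while the median over all genes was -0.051 and 4.1% of all genes were called higher. On 39 of the genes all 4 ICOS-positive fresh arrays lay above all 4 ICOS-negative ones, a separation seen for 5.78% of all genes. On 35 of them both ICOS single-positive arrays lay above the other 6, against 6.21%. ICOS single-positive cells had the highest of the 4 means for 39 genes, and double-negative cells had the lowest for 25 and CD103 single-positive cells for 16.

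**Figure D1:**
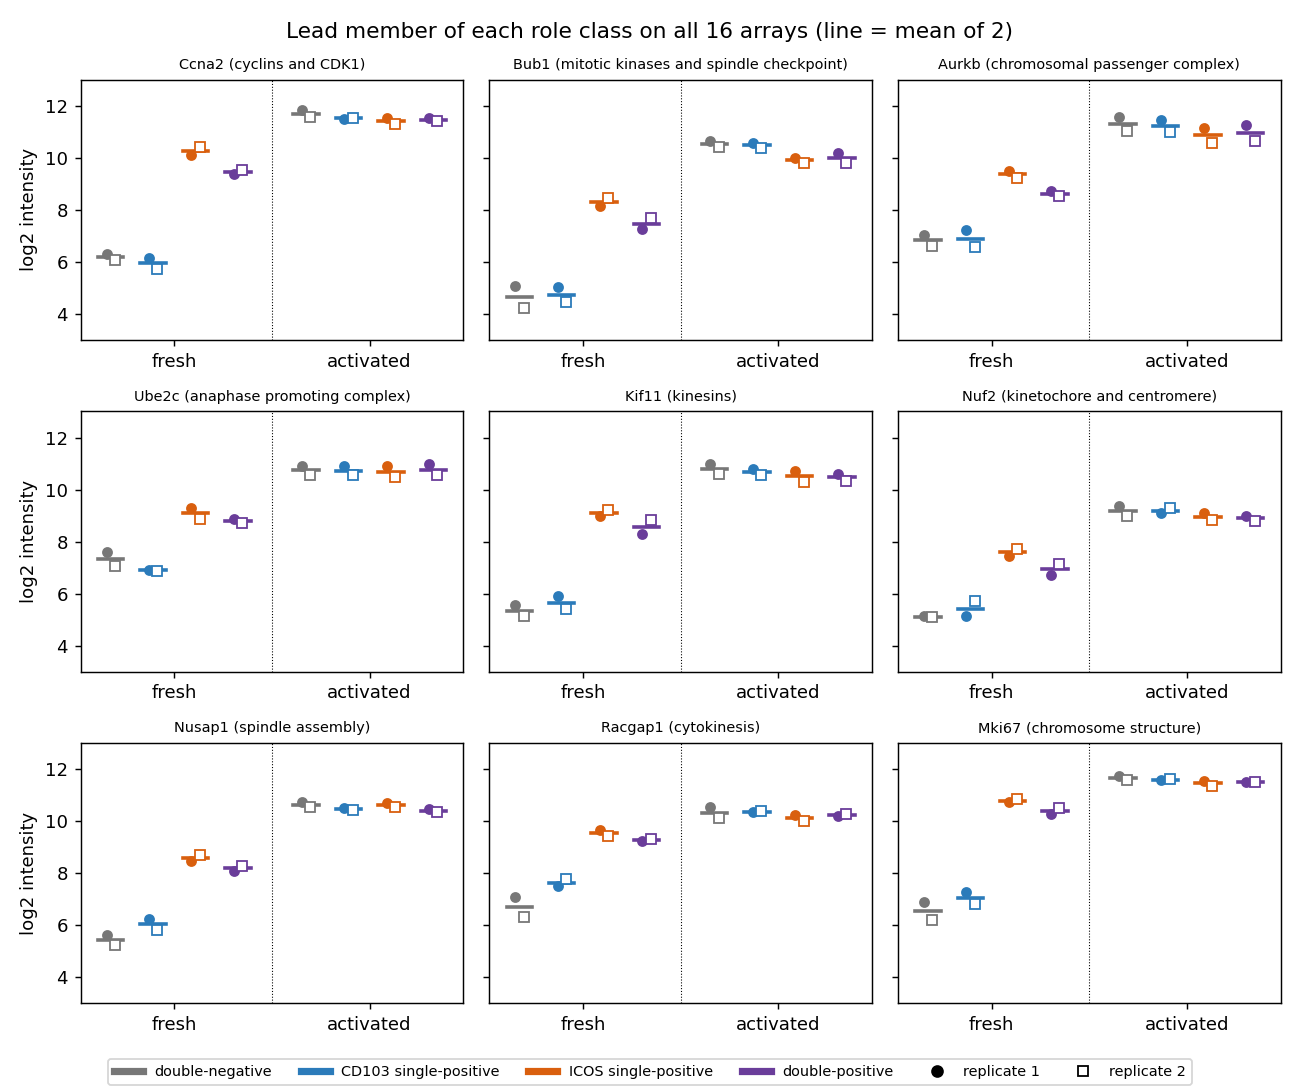
Log2 intensity of 9 genes, 1 for each role class, on all 16 arrays; colours give the subset, filled circles replicate 1, open squares replicate 2 and lines the mean of 2. In the fresh arrays ICOS single-positive cells lie highest and double-positive cells next, and the activated arrays of all subsets lie close together and above every fresh array.

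In the class of the cyclins and Cdk1, which also holds Cks1b and Cdca3, all 5 measured genes rose with ICOS, with a median of 2.41. Ccna2, cyclin A2, which drives S phase and the entry into mitosis, read 6.30 and 6.07 in double-negative cells and 6.17 and 5.74 in CD103 single-positive cells. In ICOS single-positive cells Ccna2 read 10.12 and 10.40, and in double-positive cells 9.36 and 9.52. The groups did not overlap, and the difference was 3.78 (SE 0.12, 13.8-fold, adjusted p = 6.97e-08). Ccnb2, cyclin B2, followed the same order, from 6.88 to 7.46 on the 4 ICOS-negative arrays to 10.08 and 10.11 in double-positive cells and 10.77 and 10.85 in ICOS single-positive cells.

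All 6 mitotic kinases and spindle checkpoint genes rose, with a median of 1.35. Bub1, a kinase that guards chromosome attachment, read 5.08 and 4.21 in double-negative cells, 5.02 and 4.47 in CD103 single-positive cells, 8.17 and 8.45 in ICOS single-positive cells and 7.25 and 7.67 in double-positive cells. Its ICOS-negative levels were under the array medians, and the difference was 3.19 (SE 0.20, 9.14-fold, adjusted p = 4.93e-06). Ttk and Melk, kinases of the same class, differed less, by 1.02 and 0.84. The 3 genes of the chromosomal passenger complex, which corrects faulty attachments, all rose. Aurkb, its kinase, read 7.04, 6.60, 7.24 and 6.56 on the ICOS-negative arrays, 9.49 and 9.23 in ICOS single-positive cells and 8.71 and 8.54 in double-positive cells. The ranges were apart by more than their width, with a difference of 2.13 (SE 0.22, 4.38-fold, adjusted p = 0.000166). Both genes of the anaphase promoting complex class rose. Ube2c, its ubiquitin-conjugating enzyme, read 7.59, 7.06, 6.92 and 6.87 without ICOS, 9.28 and 8.88 in ICOS single-positive cells and 8.85 and 8.73 in double-positive cells. Its ICOS single-positive and double-positive arrays differed by little, and the ICOS difference was 1.83 (SE 0.16, 3.55-fold, adjusted p = 5.08e-05).

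Of 8 kinesins, the motors that slide and depolymerise spindle microtubules, 7 rose. Kif11, the motor that pushes spindle poles apart, read 5.55, 5.13, 5.89 and 5.40 without ICOS, 8.99 and 9.21 in ICOS single-positive cells and 8.28 and 8.84 in double-positive cells. No array of either ICOS-positive subset came near the ICOS-negative ones, and the difference was 3.34 (SE 0.18, 10.1-fold, adjusted p = 2.15e-06). Kif20b, a kinesin of cytokinesis, was the kinesin that missed the threshold, with fresh values from 5.67 to 6.80 in which ICOS-positive and ICOS-negative arrays overlapped (difference 0.46, SE 0.20, adjusted p = 0.256).

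Of 6 kinetochore and centromere genes 5 rose. Nuf2, a subunit of the Ndc80 complex that grips microtubules, read 5.14, 5.10, 5.14 and 5.71 without ICOS, 7.44 and 7.73 in ICOS single-positive cells and 6.74 and 7.15 in double-positive cells (difference 1.99, SE 0.15, 3.98-fold, adjusted p = 2.07e-05). Its partner subunit Ndc80 read 6.56, 7.26, 6.54 and 6.84 without ICOS and 7.48, 7.86, 6.75 and 7.51 with it. These ranges overlapped, and Ndc80 was the other gene that missed the threshold (difference 0.60, SE 0.24, adjusted p = 0.209). Cenpa, the histone variant that marks centromeres, had the smallest difference that passed, 0.65 (SE 0.10, 1.57-fold, adjusted p = 0.00256).

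The 4 spindle assembly genes, the 3 cytokinesis genes and the 4 chromosome structure genes all rose, with medians of 2.05, 2.17 and 2.79. Nusap1, which bundles spindle microtubules, read 5.64 and 5.25 in double-negative cells, 6.26 and 5.83 in CD103 single-positive cells, 8.46 and 8.70 in ICOS single-positive cells and 8.10 and 8.28 in double-positive cells (difference 2.64, SE 0.12, 6.22-fold). Racgap1, a subunit of the centralspindlin complex that sets the cleavage site, read 7.08 and 6.31 in double-negative cells, 7.50 and 7.78 in CD103 single-positive cells, 9.68 and 9.43 in ICOS single-positive cells and 9.26 and 9.34 in double-positive cells (difference 2.26, SE 0.16, 4.79-fold). For both genes the CD103 single-positive mean lay above the double-negative one. Mki67, the Ki-67 protein used as a stain for cycling cells, read 6.91, 6.22, 7.29 and 6.82 without ICOS, 10.73 and 10.85 in ICOS single-positive cells and 10.28 and 10.51 in double-positive cells. Its difference of 3.78 (SE 0.15, 13.8-fold, adjusted p = 2.14e-07) equalled that of Ccna2 in size.

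**Figure D2:**
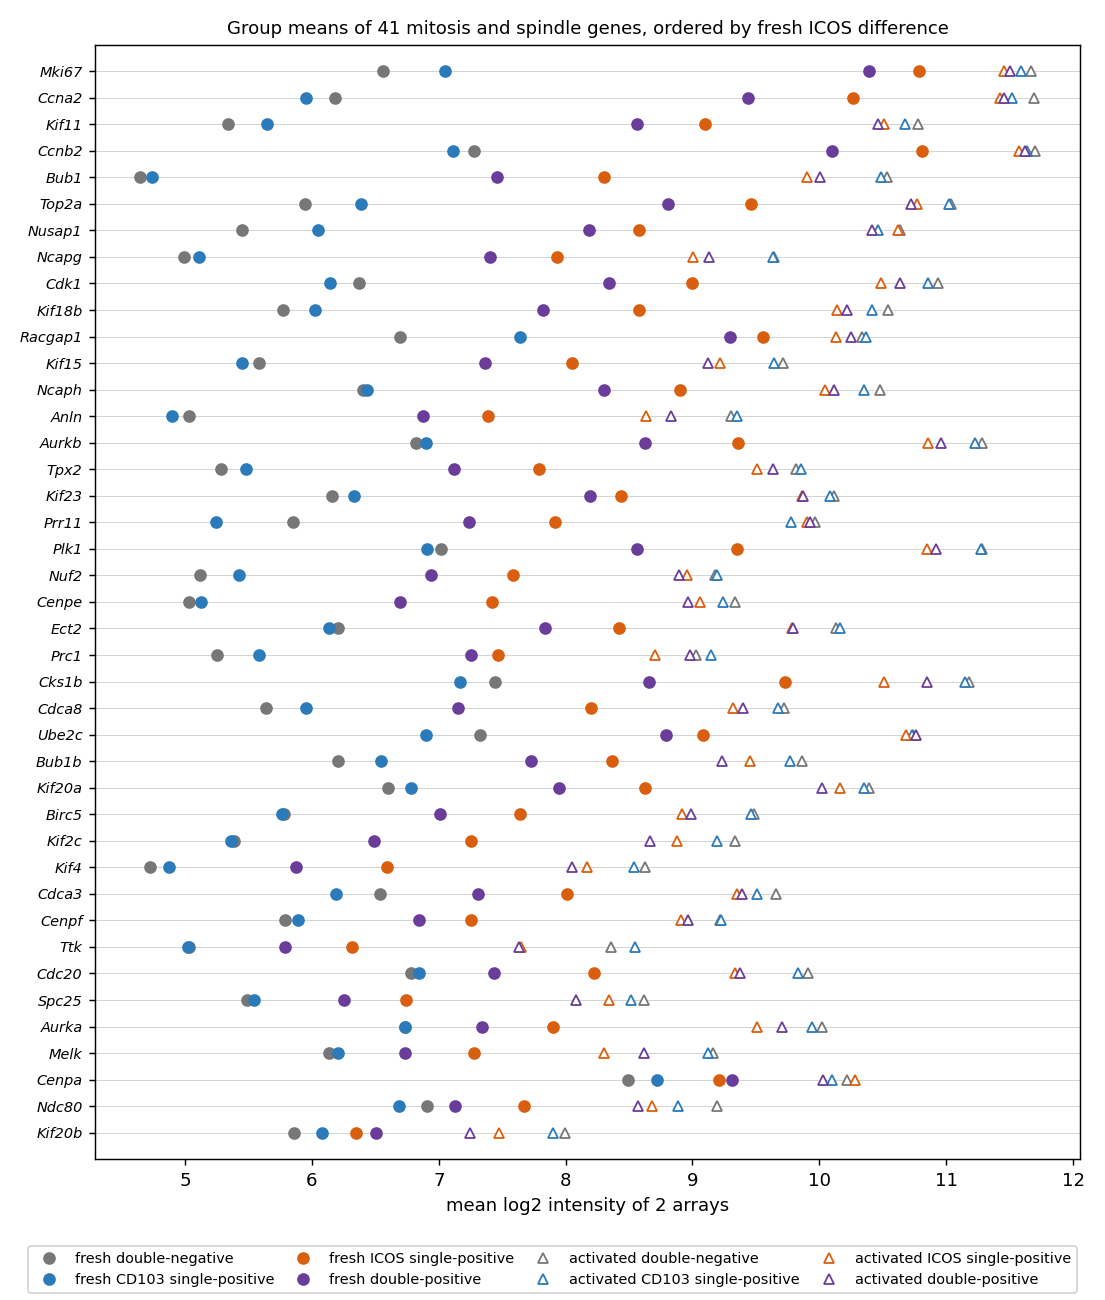
Mean log2 intensity of 2 arrays for each of the 41 genes in each group, ordered by the fresh ICOS difference; circles are fresh and open triangles activated, with a colour for each subset. Fresh means are spread over up to 4.31 log2 units, while the activated means of most genes lie nearly on top of each other.

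The ICOS difference was present with and without CD103. Among CD103-negative cells 39 of 41 genes were higher with ICOS (median 2.28), against 2.4% of all genes. Among CD103-positive cells 32 of 41 were higher (median 1.66), against 1.58% of all genes. The test of the difference between these 2 differences called 0 of the 41 genes, with 0.0451% of all genes called. It had 25 of the 41 at an unadjusted p below 0.05, against 989 of all 19938 genes. For 40 of the 41 the ICOS difference was smaller in CD103-positive cells (median -0.63). Cdca8, a scaffold of the chromosomal passenger complex, came closest, at -1.37 (SE 0.21, adjusted p = 0.0604).

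The smaller difference in CD103-positive cells corresponded to the level of double-positive cells, which lay between ICOS single-positive and ICOS-negative cells. With each gene centred on its mean of the 16 arrays, the median of the 41 genes was -0.22 and -0.10 on the 2 ICOS single-positive arrays. It was -0.93 and -0.59 in double-positive cells and -2.24 to -2.56 on the 4 ICOS-negative arrays. On 35 genes both ICOS single-positive arrays lay above both double-positive arrays, against 17.9% of all genes. Gene by gene Cks1b and Cdca8 were called lower in double-positive cells, against 0.166% of all genes. Of the 41 differences 39 were negative. An unadjusted p below 0.05 was found for 30 of the 41, against 1681 of all 19938 genes. Cks1b, a small partner of Cdk1, read 9.76 and 9.69 in ICOS single-positive cells and 8.52 and 8.80 in double-positive cells (difference -1.07, SE 0.16, adjusted p = 0.0229). Cdca8 read 8.10 and 8.30 against 6.91 and 7.39 (difference -1.05, SE 0.15, adjusted p = 0.0189). Both calls were lost when either ICOS single-positive array or double-positive replicate 1 was left out, with adjusted p from 0.115 to 0.267. For Cks1b leaving out double-positive replicate 2 also ended the call (adjusted p = 0.0735). Cks1b had been singled out for a CD103 difference in earlier results of these data, so its call is not independent support.

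Among ICOS-negative cells CD103 made no called difference in any of the 41 genes, against 0.0853% of all genes. An unadjusted p below 0.05 was found for 4 of the 41, against 795 of all 19938 genes. Racgap1 (0.94, SE 0.23, adjusted p = 0.295) and Nusap1 (0.60, SE 0.17, adjusted p = 0.481) were higher in CD103 single-positive cells without passing, and Prr11 was lower (-0.60, SE 0.15, adjusted p = 0.349).

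Genes of activated conventional CD4 T cells stood high in the same subset. The mean of the 8 measured genes of that list was 7.53 and 7.66 on the fresh ICOS single-positive arrays and 6.18 to 6.45 on the other 6 fresh arrays. Il21 read 8.94 and 9.27 there against 4.65 to 5.13 on the other fresh arrays, and Il2 read 8.36 and 8.67 against 5.67 to 6.36. The list means were 6.45 and 6.45 in double-positive cells and 6.24 and 6.18 in CD103 single-positive cells. The part of conventional CD4 T cells in the ICOS single-positive levels or in the ICOS difference was not tested.

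Neighbouring gene groups of the cycle were read beside these genes. Over all genes 4.1% were called higher with ICOS in fresh cells. Of 70 other mitosis genes 50 rose with ICOS in fresh cells (median 1.04), among them Knl1, a kinetochore scaffold (2.67), and Ncapg2, a condensin II subunit (2.23). Of 33 genes of G1 and S phase 25 rose (median 0.91), among them Rrm2, the small subunit of ribonucleotide reductase (3.01), and Ccne2, cyclin E2 (2.42). Of 20 regulators of mitotic transcription 9 rose and none fell. Foxm1, the activator of many mitotic promoters, rose by 1.74 (SE 0.14, adjusted p = 2.42e-05), and E2f8, a repressor that is itself transcribed in S phase, rose by 2.83. Of 13 brakes on the cell cycle, 1 passed, Cdkn2c, an inhibitor of Cdk4 and Cdk6, which rose by 2.40 (SE 0.24, adjusted p = 0.000168). Within ICOS-positive fresh cells 0.166% of all genes were called lower with CD103. Of the G1 and S phase genes, Mcm2, a subunit of the replicative helicase, was 1.08 lower (SE 0.17, adjusted p = 0.0329). Chaf1a of the same list differed by -0.97. Of the other mitosis genes, Cenpn differed by -1.16 and Ncapd2 by -0.68, and both were called.

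How culture changed these levels was asked next. All 8 activated arrays lay above all 8 fresh arrays for each of the 41 genes, against 3.27% of all genes. In double-negative cells all 41 genes rose, with a median of 3.95, while 8.65% of all genes rose. In CD103 single-positive cells all 41 rose with a median of 3.83, against 10.2% of all genes. In double-positive cells 40 of 41 rose with a median of 1.96, against 5.36%, and Kif20b did not pass (0.74, adjusted p = 0.119). In ICOS single-positive cells 37 of 41 rose with a median of 1.34, against 1.03%. That last count fell to 14 without fresh ICOS single-positive replicate 1 and to 22 without replicate 2, while it was 30 without the activated array on which Foxp3 was low.

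**Figure D3:**
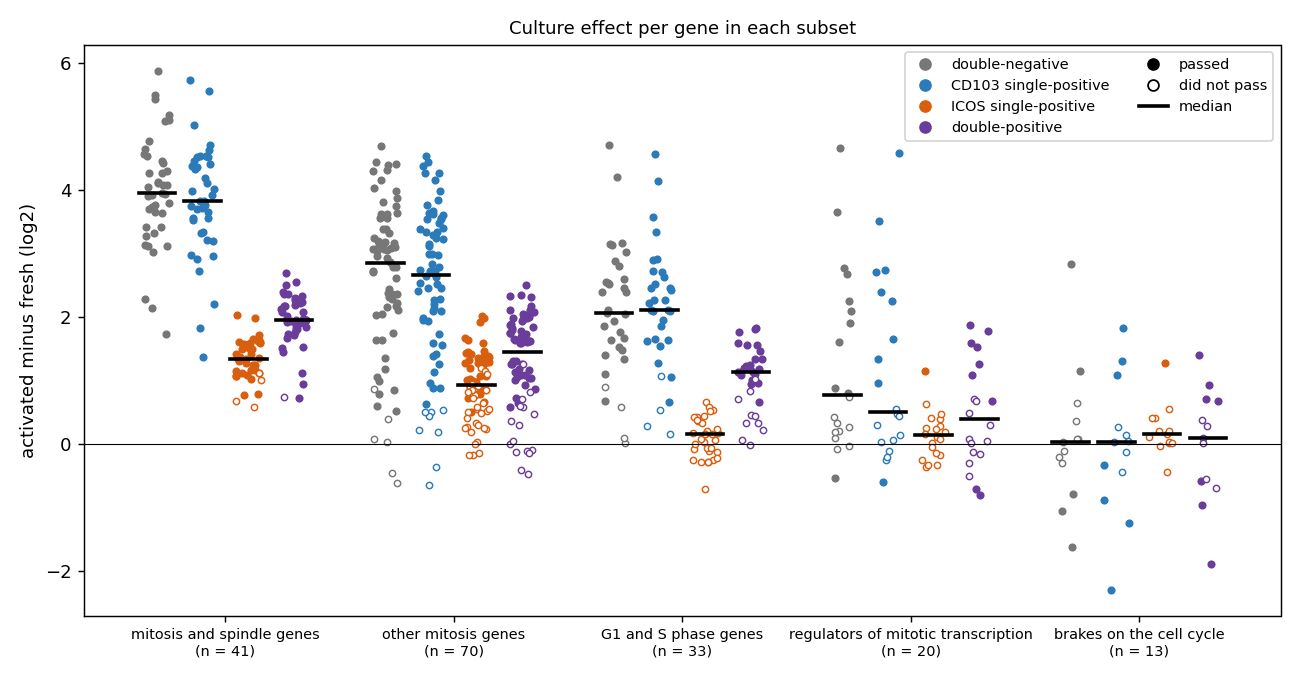
Activated minus fresh log2 difference of each gene in 5 gene lists, by subset; filled points passed the test, open points did not, and black bars are medians. For the mitosis and spindle genes the medians are 3.95 and 3.83 without ICOS, 1.34 with ICOS alone and 1.96 with both proteins, and for G1 and S phase genes the ICOS single-positive points scatter around 0.15 with none filled.

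The largest rises in double-negative cells were those of Bub1, Ccna2 and Kif11. Bub1 went from 5.08 and 4.21 to 10.64 and 10.42 in double-negative cells, a rise of 5.89 (SE 0.28, 59.2-fold, adjusted p = 1.93e-07). Ccna2 reached 11.83 and 11.56 (rise 5.51, 45.5-fold) and Kif11 reached 10.97 and 10.58 (rise 5.44, 43.4-fold). The same 3 genes led in CD103 single-positive cells, with rises of 5.74, 5.56 and 5.03. In ICOS single-positive cells the rises of these genes were 1.60, 1.16 and 1.41. There the largest rises were those of Nusap1, from 8.46 and 8.70 to 10.69 and 10.54 (rise 2.04, SE 0.17, adjusted p = 0.00021), Prr11, a regulator of spindle orientation and chromosome segregation (1.98), and Tpx2, which activates Aurora A on the spindle (1.72, adjusted p = 0.00537). The Tpx2 call was lost without fresh replicate 1 (adjusted p = 0.0669). In double-positive cells Prr11 rose by 2.69, Bub1 by 2.55 and Tpx2 by 2.51.

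The 4 genes that did not pass in ICOS single-positive cells were Mki67, Racgap1, Kif20b and Ndc80. Mki67 read 10.73 and 10.85 fresh and 11.55 and 11.37 activated in these cells (difference 0.67, SE 0.21, adjusted p = 0.152). Racgap1 read 9.68 and 9.43 fresh and 10.261 and 10.001 activated (difference 0.58, SE 0.23, adjusted p = 0.285). For both genes the fresh levels were within 1 log2 unit of the activated ones. Kif20b and Ndc80 differed by 1.12 (SE 0.29) and 1.01 (SE 0.34), with replicate spreads in fresh cells among the widest of the 41 genes. Set against the mean of the 4 activated groups, fresh ICOS single-positive cells lay 0.72 lower for Racgap1, 0.77 lower for Mki67 and 0.83 lower for Ccnb2. For Prr11, Nusap1 and Bub1 the gaps were 1.98, 1.95 and 1.93. For fresh double-negative cells the gap was 4.99 for Mki67 and 5.59 for Bub1.

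Culture narrowed the spread between subsets. The range of the 4 fresh means had a median of 2.45 over the 41 genes and ran from 0.64 to 4.31. The range of the 4 activated means had a median of 0.43 and ran from 0.08 to 0.91. It was narrower after culture for 40 genes, with Kif20b the exception (0.64 fresh, 0.75 activated). Without the array with low Foxp3 the activated median was 0.37, and the range was again narrower for 40 genes. Over all genes the medians were 0.246 and 0.26, and 47.0% narrowed. The mean gap between replicates had a median of 0.31 for the fresh and 0.19 for the activated arrays. A test for any difference among the 4 fresh subsets called 39 of the 41 genes, against 4.44% of all genes. The same test among the activated subsets had 12 of the 41 at an unadjusted p below 0.05, against 3450 of all 19938 genes. It called Melk and Ttk alone, against 3.45%. It called 0 without that array, without either activated CD103 single-positive array or without activated double-positive replicate 2.

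Taken with its sign, the ICOS difference was lower after culture than before it for all 41 genes. The test of that change called 39 of them, against 4.65% of all genes called lower. The change had a median of -2.26, and without the array with low Foxp3 it was called for 39 genes with a median of -2.19. It was -3.94 for Ccna2 (SE 0.17, adjusted p = 1.57e-06), -3.93 for Mki67, -3.74 for Bub1, -3.58 for Kif11 and -3.33 for Ccnb2. These values use the same fresh arrays as the fresh ICOS difference and repeat its order in part for that reason.

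**Figure D4:**
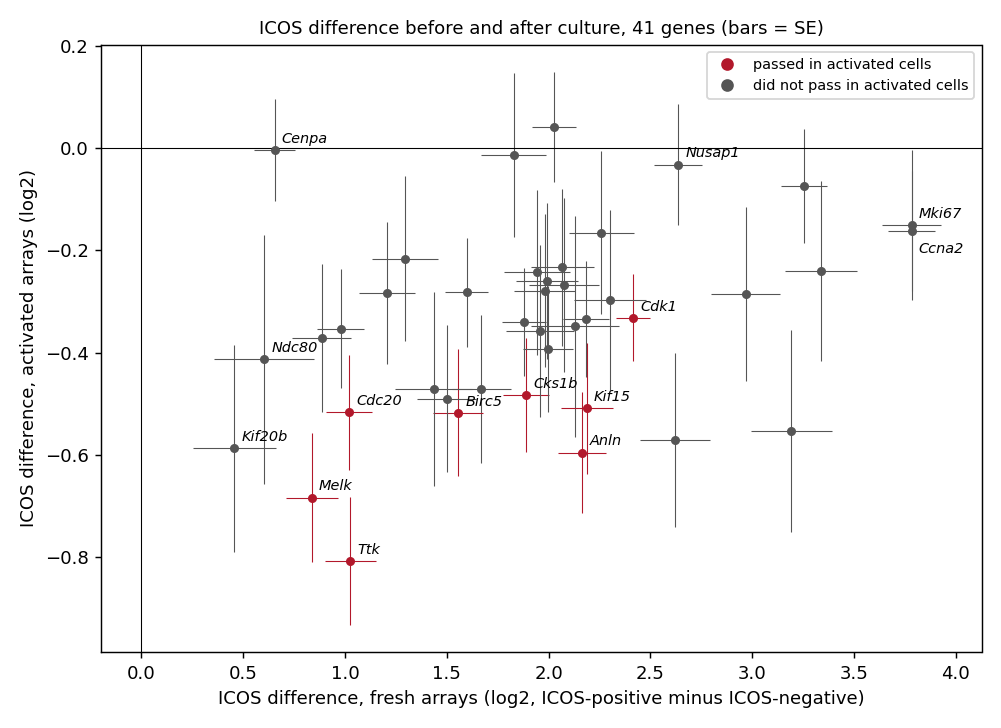
ICOS-positive minus ICOS-negative log2 difference of the 41 genes on fresh arrays (horizontal axis) and activated arrays (vertical axis), with SE bars; red genes passed in activated cells. All fresh differences lie above 0, and 40 of the 41 activated differences lie below 0, none lower than -0.81.

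In the activated cells the direction was mostly the opposite and the median size was smaller. The ICOS difference was negative for 40 of 41 genes, with a median of -0.33, and 8 were called lower and none higher, against 5% of all genes called lower. The mean of the conventional CD4 T cell genes was 7.27 to 8.34 on the 4 activated arrays of subsets sorted with ICOS. It was 6.49 to 7.63 on those of subsets sorted without ICOS. The part of conventional CD4 T cells in this difference was not tested. Double-negative cells had the highest mean for 31 genes, and the lowest mean fell to ICOS single-positive cells for 25 and to double-positive cells for 15. Without ICOS single-positive replicate 2 those numbers were 29, 14 and 25. On 20 genes all ICOS-positive activated arrays lay under all ICOS-negative ones, against 8.27% of all genes. Leaving out ICOS single-positive replicate 2, this held for 21 genes, against 11.9% of all genes. Without activated ICOS single-positive replicate 2, the array with low Foxp3, 4 genes were called, 37 were negative and the median was -0.31. Calls fell most without activated double-negative replicate 1, where the median was -0.28. They also fell without CD103 single-positive replicate 1 (median -0.34) or 2 (-0.29), double-positive replicate 2 (-0.31) or ICOS single-positive replicate 1 (-0.37). The 5% of all genes is from the fit on all arrays, and no such share was set beside these refits. A second quantile normalization gave 4 calls, 37 negative differences and a median of -0.23.

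The 8 genes were Ttk, Melk, Anln, Birc5, Cdc20, Kif15, Cks1b and Cdk1. Ttk, the Mps1 kinase that starts the spindle checkpoint, read 8.43, 8.28, 8.64 and 8.45 on the ICOS-negative arrays and 7.66, 7.64, 7.72 and 7.55 on the ICOS-positive ones. These did not overlap, and the difference was -0.81 (SE 0.12, 1.75-fold, adjusted p = 0.00609). Melk, a kinase of proliferating cells, read 9.36, 8.97, 9.05 and 9.20 against 8.61, 8.00, 8.70 and 8.53, again without overlap (difference -0.68, SE 0.13, adjusted p = 0.012). Anln, the actin-binding protein anillin of the cleavage furrow, read 9.32, 9.30, 9.40 and 9.31 against 8.62, 8.64, 8.77 and 8.90 (difference -0.60, SE 0.12, adjusted p = 0.0158). The remaining 5 differed by less. Birc5, the survivin subunit of the passenger complex, and Cdc20, the activator of the anaphase promoting complex, each differed by -0.52. Kif15 differed by -0.51, Cks1b by -0.48 and Cdk1, the kinase of mitotic entry, by -0.33. Of the 5 largest, Ttk kept its call with any array left out, whereas Melk, Anln, Birc5 and Cdc20 each lost theirs without at least 1 activated array, with adjusted p from 0.0505 to 0.101. The 6 genes with the largest fresh differences did not pass after culture, at -0.16 for Ccna2, -0.15 for Mki67, -0.24 for Kif11, -0.07 for Ccnb2, -0.55 for Bub1 and -0.28 for Top2a.

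CD103 made no called difference to any of the 41 genes after culture, against 0.717% of all genes. The differences ran from -0.21 to 0.20 with a median of -0.015, none had an unadjusted p below 0.05, and the smallest adjusted p was 0.504. Without the array with low Foxp3 the median was -0.052.

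The G1 and S phase genes were read in the same cells. Culture raised 29 of 33 in double-negative cells, 29 in CD103 single-positive cells and 23 in double-positive cells. The shares of all genes raised were 8.65%, 10.2% and 5.36%. In ICOS single-positive cells culture raised 0 of 33 by limma, with a median of 0.15. In these cells 6 had an unadjusted p below 0.05, against 2604 of all 19938 genes. There 38 of 70 other mitosis genes rose (median 0.92), and 1.03% of all genes did. Without the array with low Foxp3 these counts were 0 of 33 and 26 of 70, and without fresh ICOS single-positive replicate 1 they were 0 and 15. Leaving out the partner of the first array gave 25 other mitosis genes and 1 G1 and S phase gene called lower. Rrm2 read 9.95 and 10.23 fresh and 10.96 and 10.38 activated in those cells. Orc1, a subunit of the origin recognition complex, read 6.79 and 6.96 fresh and 6.97 and 6.33 activated there, against 8.47 and 7.95 in activated double-negative cells. Whether the culture effect on this list differs from that on the mitotic genes was not tested.

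In activated cells 17 of the 33 G1 and S phase genes were lower with ICOS (median -0.63), led by Orc1 at -1.20 (SE 0.16, adjusted p = 0.00372), and 7 were called without the array with low Foxp3. Of the other mitosis genes 18 of 70 were lower, led by Pbk, a mitotic kinase (-0.92), and 12 without that array. Over all genes 5% were called lower in the fit on all arrays. Both counts fell most, to a small part of each list, without activated double-positive replicate 2. They also fell without double-negative replicate 1 and without either CD103 single-positive replicate. The share of all genes was not set beside these refits, so their counts cannot be judged against it. Among the regulators Mybl2, which encodes B-Myb (-0.86, SE 0.11, adjusted p = 0.00358), E2f3 (-0.71), Tfdp1 (-0.64) and E2f7 (-0.54) were lower and Rbl2, a pocket protein of DREAM, was higher, and all 5 were called without the array with low Foxp3 too. Btg1, an antiproliferative gene, was 0.43 higher with ICOS (SE 0.09, adjusted p = 0.018), and Btg2 was 1.05 lower with CD103 (adjusted p = 0.025). Culture lowered Cdkn1b, the Cdk inhibitor p27, in double-negative, CD103 single-positive and double-positive cells, by 0.79, 0.89 and 0.59. In the same subsets Btg2 differed by -1.62, -2.30 and -1.89, and Btg1 by -1.06, -1.25 and -0.96. Cdkn2c rose by 2.83 in double-negative cells and by 1.83 in CD103 single-positive cells. Cdkn2d rose by 1.31 in CD103 single-positive cells, by 1.28 with ICOS alone and by 1.41 with both proteins. Culture also raised Fzr1 by 1.15 in double-negative cells and Cdkn2b by 0.925 in double-positive cells. It raised Foxm1 by 3.66 in double-negative cells and by 1.16 in ICOS single-positive cells, where Foxm1 was the only regulator of 20 that passed and did so without the array with low Foxp3 as well (1.37, adjusted p = 0.0127).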

How the data were processed

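RNA was measured on Affymetrix expression arrays from 8 groups of Treg with 2 arrays each. The deposited values are log2 intensities of 35556 probe sets, made by the authors with RMA and the affy package, per the submitters' processing notes; for neither is a version or setting given in the sources used here. They were used without further normalization. Arrays carry no counting depth, so the 2 arrays per group limit the precision. The series describes 2 independent experiments, and whether the replicate numbers mark them is not stated, so p-values measure the spread between these arrays.

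The platform annotation gave 21789 probe sets 1 symbol, 1621 several and 12146 none. Of those with 1 symbol, 21698 matched RefSeq by gene ID, and no symbol changed. The brightest probe set stood for each of 19938 genes. No dim genes were removed. A limma 3.58.1 model in R 4.3.3 with 8 group means (8 residual and 2.9 prior degrees of freedom) gave 15 comparisons, each adjusted over all genes by Benjamini-Hochberg and called at 0.05. The script was tested on simulated data. Alternatives were a second quantile normalization, a filter on dim genes, the mean of a gene's probe sets, a replicate block, an intensity-dependent prior, fits on fresh or activated arrays alone, and leaving out each array.

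The mitosis and spindle genes, the 4 pathway lists (142 genes, 136 measured) and the 7 marker lists (70 genes, 64 measured) were chosen with earlier results of these data known. Genes given in full were the called gene of each role class with the largest fresh ICOS difference, the 3 with the smallest, and up to 5 called genes with the largest difference in each later comparison. Of culture effects the 3 largest per subset and of each pathway list up to 4 called genes could be named. Other genes named were chosen after their values were seen. Promoter windows came from RefSeq on GRCm38.p6.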

Additional observations from a re-analysis of the deposited data

Results flagged for a closer look

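The test of the ICOS difference in activated minus fresh cells called 39 of the 41 mitosis and spindle genes, all in the direction of a smaller or opposite difference after culture. The 5 largest were Ccna2 at -3.94, Mki67 at -3.93, Bub1 at -3.74, Kif11 at -3.58 and Ccnb2 at -3.33 on the log2 scale. The count was 39 to 40 with any 1 array left out.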

How the results depend on the processing

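Under the alternatives, including each of 16 arrays left out in turn, the count of 39 for the fresh ICOS difference was never below 39. The counts with 1 array left out were 35 to 39 for that difference among CD103-negative cells, 26 to 33 among CD103-positive cells, 0 to 1 for the test between them, 0 to 3 for CD103 among ICOS-positive fresh cells, 2 to 10 for the activated ICOS difference and 39 to 40 for its change with culture. For the culture effect they were 41 in double-negative and CD103 single-positive cells, 14 to 36 in ICOS single-positive cells and 38 to 40 in double-positive cells, and for any difference among subsets 37 to 39 fresh and 0 to 3 activated. CD103 among ICOS-positive fresh cells gave 5 calls after quantile normalization and 4 on fresh arrays alone, against 2. The activated ICOS difference gave 4 after quantile normalization and 4 on activated arrays alone, against 8. Any difference among activated subsets gave 0 after quantile normalization, 1 with an intensity-dependent prior and 0 on activated arrays alone, against 2. Replicate numbers were not taken to pair arrays, since it is not stated whether they mark the 2 experiments. The correlation of replicate differences was 0.50 to 0.75 among fresh groups, 0.11 to 0.45 among activated groups and -0.016 to 0.42 between states. Fresh arrays of the same replicate number thus shared part of their difference, which the main fit leaves in the spread. The replicate block fits 1 shift over both states and not 1 for each. With a replicate block the calls were 1 for the test between ICOS differences, 9 for CD103 among ICOS-positive fresh cells, 14 for the activated ICOS difference and 6 for any activated difference. Of 775 values of single genes recomputed, 748 kept direction and side of the threshold, 26 no longer passed, 1 newly passed (Ndc80 with the block, adjusted p = 0.0105) and none reversed. The causes were not tested.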
